A study of Mus musculus with 13 samples.

Results

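The genes described here build and decorate O-linked glycans, or carry the activated sugars and sulfate that these reactions use, in the developing mouse submandibular gland. They were chosen by symbol, as the families Galnt, B3gnt, B4galt, Gcnt, St3gal, St6gal (with St6galnac), Fut, Chst and Slc35a to Slc35f, with C1galt1 and C1galt1c1, and not by their expression. The rule found 99 of the 23364 genes listed in each sample. Of these, 86 reached 1 FPKM (read density scaled to gene length and to the depth of the library) in 1 sample or more and were tested. The 13 below this level in every sample were B3gnt4, Chst4, Chst8, Fut7, Galnt9, Galnt13, Galnt14, Gcnt4, Gcnt7, Slc35d3, Slc35f4, St6gal2 and St6galnac5. Some members chosen by symbol also, or mainly, act on N-glycans, glycolipids or proteoglycans, and these roles are given where each gene is described.

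RNA-seq was run on glands of C57BL/6 mice at 6 time points: embryonic days E14.5 (3 samples), E16.5 (2 samples) and E18.5 (2 samples), postnatal day 5 (P5, 2 samples), 4 weeks (2 samples) and 12 weeks (2 samples). Glands were pooled before extraction at embryonic ages, from 3 animals for each E14.5 sample and from 2 for each E16.5 or E18.5 sample. Adult glands were from males, whereas the sex of younger animals was not ascertained, so that adult age and male sex cannot be told apart. No genotype or treatment differed between the groups, and stages were compared as embryo (7 samples), P5 (2 samples) and adult (4 samples at 4 and 12 weeks). The ages of a stage were taken as replicates there, so the errors of stage comparisons include change between ages.

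O-GalNAc glycans are built in the Golgi one sugar at a time. A polypeptide GalNAc-transferase (Galnt) places the first sugar on serine or threonine, a core enzyme extends it with galactose or N-acetylglucosamine, and galactosyl-, sialyl-, fucosyl- and sulfotransferases complete the chain. Every step needs a nucleotide sugar, or the sulfate donor PAPS, brought into the Golgi or endoplasmic reticulum, mostly by transporters of the Slc35 family. Salivary mucins and other secreted glycoproteins of the submandibular gland carry many such chains, and acinar cells produce much of this secretion.

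Depth, inferred from the deposited values, ranged from 5817293 reads on genes in 4-week replicate 1 to 48314162 in P5 replicate 1. By this estimate 1 read on a gene of 1 kilobase was worth between 0.172 and 0.0207 FPKM. A few secretory transcripts dominated the adult libraries: the 10 most abundant genes held 5.99% to 7.18% of FPKM in E14.5 samples, 29.2% and 31.1% at P5, and 48.1% to 61.1% in adult samples. On deposited FPKM the median log2 difference over all tested genes was -0.75 from embryo to adult. Values below are deposited FPKM divided by median-of-ratios factors (rescaled FPKM), which brought this median to -0.08, and stage calls of members that were lost on the deposited scale are named. The summed rescaled FPKM of 7 mesenchyme markers was 1191 to 1628 in embryonic samples, 1322 and 1227 at P5, 363 and 350 at 4 weeks, and 112 and 79.2 at 12 weeks. Over the same samples the summed level of 9 acinar markers went from 42.7 in E14.5 replicate 1 to between 164470 and 261664 in the adult, while that of 4 general epithelial markers was 227 to 1166 in the embryo, 1061 and 1331 at P5, and 951 to 1161 in the adult. From P5 to adult all 4 tested granular duct markers were called higher, with a median log2 difference of 8.9. Of the 9 acinar markers, 1 was called higher and 1 lower in that comparison, with a median of 0.69. All 8 skeletal muscle markers were called lower from embryo to adult. In such bulk samples fewer cells of a type and less RNA per cell cannot be told apart, and the part of changing cell composition in the differences below was not tested.

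Between embryo and adult, 20 of the 86 tested members were higher (13.8% of all tested genes were) and 21 were lower (14.7% of all tested genes), at a log2 difference of at least 1 and an adjusted p below 0.1 in limma. The transporters and the transferases were split unequally. Among 22 Slc35 genes, 7 rose and 2 fell, with a median log2 difference of 0.72, whereas among 64 transferase and chaperone genes 13 rose and 19 fell, with a median of -0.29. On deposited FPKM the Slc35 median was -0.12, with 0 genes called higher in limma (4 at an unadjusted p below 0.05) and 4 called lower, and the transferase median was -0.89 with 5 higher and 29 lower (5.58% and 38.0% of all tested genes were called higher and lower on that scale). The direction of the transporter family as a whole thus depended on the scaling. The gap between both medians was present under each scaling. Rescaling divides all genes of a sample by the same factor and shifts them nearly alike, so this is no check of the gap. Under both scalings 5 members rose (5.58% of all tested genes did), and these were C1galt1, Chst13, Galnt3, St6galnac1 and St6galnac2. The rises lost on deposited FPKM were those of B4galt6, C1galt1c1, Chst9, Galnt10, Gcnt2, Slc35a3, Slc35a5, Slc35b1, Slc35c2, Slc35e4, Slc35f5, Slc35f6, St3gal4, St3gal5 and St3gal6. The 21 that fell were called under both scalings, as was every fall among all tested genes (14.7%). Deposited FPKM lower adult values relative to earlier ones, so that scale is no check of a fall.

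**Figure D1:**
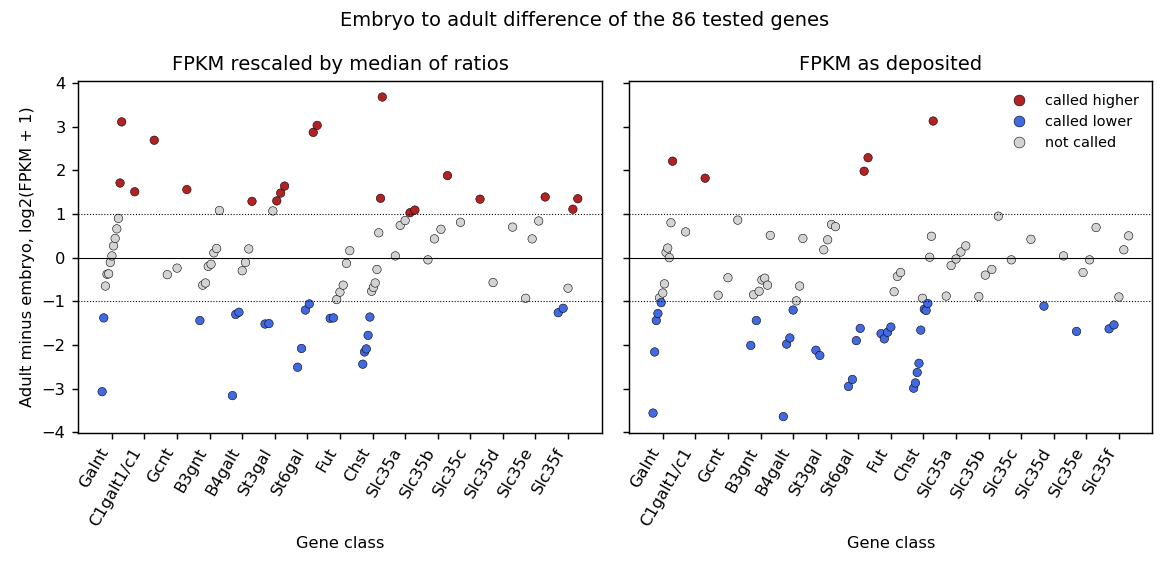
Each point is 1 of the 86 tested genes, placed by family on the horizontal axis and by its adult minus embryo difference in log2(FPKM + 1) on the vertical axis, with rescaled FPKM on the left and deposited FPKM on the right; red marks genes called higher, blue genes called lower, and dotted lines the threshold of 1. Chst13, Galnt3, St6galnac1, St6galnac2 and C1galt1 stay red in both panels, and red points of the Slc35 families are seen on the left only.

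Most of the rises came between P5 and the adult, and most of the changes before birth were rises at E16.5. From embryo to P5, 4 members rose (5.55% of all tested genes did) and 4 fell (3.9% of all tested genes). From P5 to adult, 14 rose (6.05%) and 6 fell (8.53%), and 7 of the rises (2.31%) held under both scalings, the lost rises being those of C1galt1c1, Gcnt2, Slc35a5, Slc35b1, Slc35e1, Slc35e4 and Slc35f6. All 6 falls were called on both scalings, as was every fall among all tested genes (8.53%), which is no check of them. Among single steps, 8 members rose (3.64%) and 2 fell (0.751%) from E14.5 to E16.5, 3 rose (1.32%) from E16.5 to E18.5, and 1 rose (2.37%) and 2 fell (1.79%) from E18.5 to P5. From P5 to 4 weeks 13 rose (6.37%) and 6 fell (8.72%), and from 4 to 12 weeks 3 rose (3.62%) and 8 fell (3.24%). Of the 13 rises from P5 to 4 weeks, 5 were also called on deposited FPKM, where 321 of all tested genes were called higher. These 5 were B4galt6, C1galt1, Chst13, Galnt10 and St6galnac2. Each share in parentheses is that of all 14650 tested genes called in the same direction. The members were highest, by the mean of a time point, at E14.5 for 24 genes (27.9% of members, against 29.6% of all tested genes), at E16.5 for 9, E18.5 for 8, P5 for 6, 4 weeks for 17 and 12 weeks for 22 (25.6%, against 21.3%). This distribution was close to that of all tested genes.

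The polypeptide GalNAc-transferases changed in composition. Of 13 tested Galnt genes, 2 rose and 2 fell from embryo to adult, with a median log2 difference of 0.04 (13.8% and 14.7% of all tested genes rose and fell). On deposited FPKM 1 rose and 5 fell, with a median of -0.81 (5.58% and 38.0% of all tested genes). Galnt3, which acts on proteins such as FGF23, had the largest rise of the family from embryo to adult. Its rescaled FPKM was 3.28, 5.07 and 5.32 on E14.5, 8.4 and 9.95 on E16.5, 17.9 and 20.0 on E18.5, 21.7 and 25.1 at P5, 64.3 and 76.1 at 4 weeks, and 90.8 and 94.1 at 12 weeks. No sample of a later time point lay below any sample of an earlier one. The log2 difference was 1.37 ± 0.48 (SE) from embryo to P5 (adjusted p = 0.064, limma), 1.74 ± 0.52 from P5 to adult (adjusted p = 0.026) and 3.11 ± 0.38 from embryo to adult (adjusted p = 1.1e-05). Both shorter comparisons lost the call when either P5 sample was left out (adjusted p of 0.28 and 0.31, and of 0.17 and 0.12), and the first also without E14.5 replicate 2 or 3 (adjusted p = 0.1).

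Galnt1 and Galnt2, the broadly expressed initiating enzymes, led at E14.5. Galnt1 was at 38.0, 38.6 and 36.9 rescaled FPKM on E14.5, 15.9 and 16.1 at P5, and 17.2 to 30.2 in the adult, with an embryo to adult difference of -0.38 ± 0.19 that did not reach the size threshold (adjusted p = 0.098, limma). Galnt2 lay between 20.4 and 34.8 in all 13 samples, with a difference of -0.11 ± 0.14 (adjusted p = 0.51). The ratio of Galnt3 to Galnt1, which does not depend on the scaling of a sample, was 0.0865 to 0.144 on E14.5, 0.294 and 0.446 on E16.5, 0.703 and 0.81 on E18.5, 1.36 and 1.56 at P5, and 3.12 to 3.96 in the adult. Galnt3 was therefore below Galnt1 in every sample up to E18.5 and above it in every sample from P5 on. Against Galnt2 no such order held at P5, where Galnt3 was at 21.7 and 25.1 and Galnt2 at 22.5 and 22.9.

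Several members of the follow-on group, whose enzymes prefer peptides that already carry GalNAc, were highest between E18.5 and 4 weeks. Galnt7 was at 7.1, 6.24 and 6.48 rescaled FPKM on E14.5, rose to 20.3 and 27.4 on E16.5 (log2 difference 1.70 ± 0.14, adjusted p = 4.8e-05, limma), was at 42.5 and 38.7 on E18.5, 24.5 and 29.5 at P5 (-0.57 ± 0.15, adjusted p = 0.03, below the size threshold) and at 44.6 and 44.3 at 4 weeks, and fell to 20.7 and 22.8 at 12 weeks. Galnt12 was at 6.71, 7.46 and 7.38 on E14.5, 23.9 and 25.9 on E16.5, 31.2 and 31.4 on E18.5, 18.0 and 18.6 at P5, 17.4 and 12.3 at 4 weeks, and 1.37 and 1.98 at 12 weeks. Both had risen by E16.5, and Galnt12 by 1.66 ± 0.15 (adjusted p = 8.3e-05). The 4 to 12-week difference of Galnt12 was -2.56 ± 0.16 (adjusted p = 7.9e-06), and that of Galnt7 just reached the threshold (-1.0 ± 0.15, adjusted p = 0.0015). The call of Galnt7 was lost without 12-week replicate 1 (-0.94) or without 4-week replicate 1. Galnt5 fell with them, from 2.67 and 4.51 at 4 weeks to 0.352 and 0.651 at 12 weeks (-1.59 ± 0.22, adjusted p = 0.0011; adjusted p = 0.11 in a fit to the groups compared alone), and Galnt4 was the remaining Galnt gene called lower in that step (-1.20 ± 0.14, adjusted p = 0.00027).

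Galnt10, on chromosome 11 (mm9 chr11:57458944-57601016, plus strand), took another course. It was at 8.23 to 21.2 rescaled FPKM in the embryo, 13.1 and 13 at P5, 52.5 and 55.3 at 4 weeks, and 39.8 and 46.2 at 12 weeks, so that every adult sample was above every earlier one. The P5 to adult rise was 1.80 ± 0.28 (adjusted p = 0.00057, limma) and was also called on deposited FPKM (1.14). The embryo to adult rise of 1.71 ± 0.20 (adjusted p = 9.1e-06) was 0.80 on deposited FPKM and not called. Galnt16 went the opposite way: it was at 13.7, 15.4 and 14.3 on E14.5, 5.69 and 5.57 at P5, 0 and 0.779 at 4 weeks, and 0.583 and 0.581 at 12 weeks. The 0 in 4-week replicate 1, the shallowest library, allows up to 0.176 rescaled FPKM (3 reads). The embryo to adult fall of Galnt16 had a log2 difference of -3.07 ± 0.21 (adjusted p = 5.9e-08). Galnt12 was the other Galnt gene called lower from embryo to adult (-1.38 ± 0.61, adjusted p = 0.063), a call carried by the 12-week samples and lost without replicate 1 (-0.90, adjusted p = 0.23) or replicate 2 (-1.01, adjusted p = 0.2) of that age, and without any single E16.5 or E18.5 sample (adjusted p of 0.1 or 0.11).

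**Figure D2:**
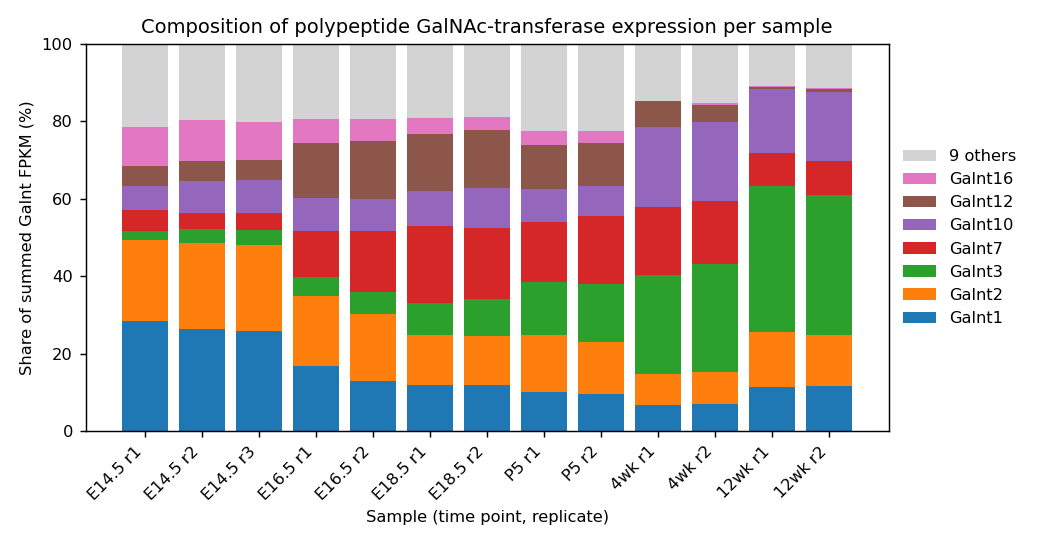
Bars give, for each of the 13 samples, the share (%) of the summed Galnt FPKM held by 7 named genes, stacked from Galnt1 at the bottom, with the other 9 Galnt genes in grey; a share within a sample does not depend on the scaling. Galnt1 and Galnt2 together make up the lowest blocks at E14.5 (28.5% and 20.8% in replicate 1), and Galnt3 grows from 2.47% in that sample to 37.6% in 12-week replicate 1.

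As a share of summed Galnt FPKM, Galnt1 went from 25.9% to 28.5% at E14.5 to 6.80% and 7.07% at 4 weeks, and Galnt3 from 2.47% to 3.73% at E14.5 to 25.4% and 28.0% at 4 weeks and 37.6% and 36.3% at 12 weeks. Galnt10 held 6.19% to 10.1% in embryonic samples, 8.34% and 7.76% at P5, and means of 20.5% ± 0.295 at 4 weeks and 17.1% ± 0.928 at 12 weeks (SD, n = 2 each). Galnt12 held 14.1% to 15.0% at E16.5 and E18.5 and 0.565% and 0.764% at 12 weeks. The leading transferase gene was thus Galnt1 on E14.5 and Galnt3 at both adult ages.

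The core 1 enzyme rose late and with its chaperone. C1galt1 (mm9 chr6:7794842-7822047, plus strand) adds galactose to GalNAc to make core 1, and C1galt1c1 (Cosmc) is the chaperone it needs to fold. C1galt1 was at 7.88, 5.76 and 6.2 rescaled FPKM on E14.5, 3.12 and 3.14 on E16.5, 4.74 and 3.56 on E18.5, 5.45 and 5.21 at P5, 33.1 and 34.9 at 4 weeks, and 36.8 and 38.0 at 12 weeks. All adult samples were more than 4 times the highest earlier sample. The P5 to 4-week rise was 2.47 ± 0.15 (adjusted p = 1.3e-06, limma) and the P5 to adult rise 2.53 ± 0.28 (adjusted p = 3.9e-05), called also on deposited FPKM (1.83 and 1.88). C1galt1c1 was at 12.3 to 26.8 in the embryo, 16.3 and 21.7 at P5 and 41.7 to 57.6 in the adult, with a P5 to adult rise of 1.39 ± 0.30 (adjusted p = 0.0045). On deposited FPKM that rise was 0.73, below the threshold. The ratio of C1galt1 to C1galt1c1, independent of scaling, was 0.417 to 0.604 on E14.5, 0.133 to 0.335 from E16.5 to P5 and 0.646 to 0.794 in the adult, without overlap.

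B3gnt6, the core 3 synthase that competes for the same GalNAc, rose earlier than C1galt1 and fell in the adult. B3gnt6 (mm9 chr7:105340930-105347991, minus strand) was at 0.0653, 0.0644 and 0.0121 rescaled FPKM on E14.5, which correspond to 4, 5 and 1 reads. It was at 4.04 and 5.95 on E16.5, 11.9 and 15.6 on E18.5, a mean of 15.6 ± 1.56 at P5 (SD, n = 2), 27.9 and 33.6 at 4 weeks, and 0.17 and 2.07 at 12 weeks. The rise to E16.5 (2.50 ± 0.32, adjusted p = 0.00077, limma) and the fall from 4 to 12 weeks (-4.06 ± 0.35, adjusted p = 7e-05) were both called, the fall also on deposited FPKM (-3.73). The rise from E16.5 to E18.5 (1.31 ± 0.35, adjusted p = 0.051) was lost without E16.5 replicate 1 (adjusted p = 0.17) or either E18.5 sample (adjusted p of 0.12 and 0.28). The ratio of B3gnt6 to C1galt1 was 0.00195 to 0.0112 on E14.5, 1.3 to 4.37 from E16.5 to P5, 0.842 and 0.964 at 4 weeks, and 0.00464 and 0.0543 at 12 weeks. The 12-week samples differed from each other, with 6 reads in replicate 1.

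Of the mucous-cell markers, Muc19 was called in the same direction as B3gnt6 from E14.5 to E16.5 and from 4 to 12 weeks. Spdef was also called higher from E14.5 to E16.5. From E16.5 to E18.5 B3gnt6 was called and Muc19 was not, and from P5 to 4 weeks Muc19 was called and B3gnt6 was not (0.93 ± 0.35, adjusted p = 0.056, limma). On deposited FPKM neither gene was called from P5 to 4 weeks. Muc19, the gel-forming mucin of sublingual mucous cells, was at 0.0127 to 0.184 rescaled FPKM on E14.5, 12.8 and 24.3 on E16.5, 36.4 and 42.7 on E18.5, 68.8 and 42.0 at P5, 144 and 133 at 4 weeks, and 0.0369 and 3.46 at 12 weeks. The summed level of the 3 markers Muc19, Muc5b and Spdef was 0.5 to 99.9 in the embryo, 127 and 103 at P5, 196 and 196 at 4 weeks, and 22.5 and 19.1 at 12 weeks. The part of mucous cells, or of sublingual tissue in the dissected glands, in the course of B3gnt6 was not tested.

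The branching enzymes were lower and less uniform. Gcnt2, which adds the I branch to poly-N-acetyllactosamine, was at 1.0 to 1.54 rescaled FPKM in the embryo, 1.93 and 2.25 at P5, 6.67 and 6.16 at 4 weeks, and 5.13 and 4.94 at 12 weeks, with an embryo to adult rise of 1.56 ± 0.12 (adjusted p = 1.5e-07, limma; 0.86 on deposited FPKM, not called). Gcnt1, the core 2 enzyme, was at 2.84, 2.48 and 2.59 on E14.5, 0.877 and 1.14 at P5, 0 and 0.298 at 4 weeks, and 1.31 and 5.66 at 12 weeks. Its rise from 4 to 12 weeks (1.78 ± 0.37, adjusted p = 0.0088) rested on few reads at 4 weeks, where the 0 of replicate 1 allows up to 0.129 rescaled FPKM, and on 12-week samples that were far apart, and it was lost in a fit to the groups compared alone (adjusted p = 0.23). Those samples also differed in acinar genes: Bpifa2 was at 5531 and 53414 rescaled FPKM in 12-week replicates 1 and 2, and Amy1 at 917 and 10052. The part of this difference in Gcnt1 was not tested.

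The promoters of C1galt1, Galnt10 and Chst13, a sulfotransferase gene described further on, are shown because these genes rose from P5 to adult under both scalings while their start regions differ in base composition. Each run is the 250 bases before the start of the gene in the direction of transcription, taken from RefSeq on GRCm38.p6, at chr6:7844974-7845223 (plus strand), chr11:57645192-57645441 (plus strand) and chr6:90325186-90325435 (minus strand).
C1galt1: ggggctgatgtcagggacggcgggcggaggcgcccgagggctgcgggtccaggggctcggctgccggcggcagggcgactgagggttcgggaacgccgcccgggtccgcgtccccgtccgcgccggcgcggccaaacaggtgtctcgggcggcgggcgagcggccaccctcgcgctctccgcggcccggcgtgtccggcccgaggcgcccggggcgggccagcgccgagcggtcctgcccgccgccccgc
Galnt10: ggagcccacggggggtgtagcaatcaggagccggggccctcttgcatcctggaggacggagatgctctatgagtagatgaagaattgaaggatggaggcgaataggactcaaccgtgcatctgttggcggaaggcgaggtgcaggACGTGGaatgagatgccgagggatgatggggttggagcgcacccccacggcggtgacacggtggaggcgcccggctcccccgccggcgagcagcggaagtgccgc
Chst13: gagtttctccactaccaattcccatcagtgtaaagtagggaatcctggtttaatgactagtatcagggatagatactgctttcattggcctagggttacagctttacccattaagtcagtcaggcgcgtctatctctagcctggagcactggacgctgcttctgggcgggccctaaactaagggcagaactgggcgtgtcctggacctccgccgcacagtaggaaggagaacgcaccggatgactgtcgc
The C1galt1 run holds 44 CG dinucleotides and is 82.8% G or C, that of Galnt10 holds 20 and is 64.4%, and that of Chst13 holds 10 and is 52.8%, against medians of 6 and 52.4% over 32851 mouse promoters of the same length. Capitals mark ACGTGG, a core of sites bound by unfolded-protein-response factors, 105 bases before the start of Galnt10. This motif or its reverse complement CCACGT was found in 6.91% of all promoters and in 10 of the 76 members with a promoter sequence, and CAGCTG, an E-box that is its own reverse complement, in 13% of all promoters and in 10 of the same 76. A member was counted if any of its promoters matched, so these counts of genes and shares of promoters are not alike. No CAGCTG or ACGTGG letters were found in the C1galt1 and Chst13 runs. Of the 7 members called higher from P5 to adult under both scalings, 5 had a promoter sequence. The runs of Galnt3 (34 CG dinucleotides, 76.8% G or C) and St3gal5 (25 and 71.6%) held neither motif and are not shown. The 2 motifs were chosen after the expression values were seen, and a match is a description of the sequence only.

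Sialyltransferase genes changed in both directions. Of 6 tested St3gal genes, 3 rose (St3gal4, St3gal5 and St3gal6) and 2 fell from embryo to adult (13.8% and 14.7% of all tested genes). On deposited FPKM 0 were called higher and 2 lower in limma (5.58% and 38.0% of all tested genes). The 3 rises were 0.71, 0.41 and 0.76 on that scale (adjusted p of 0.15, 0.039 and 0.012, limma). All 6 tested St6gal and St6galnac genes were called on both scalings, 2 higher and 4 lower. St6galnac1 (mm9 chr11:116600308-116636821, minus strand), which caps GalNAc with sialic acid to give sialyl-Tn, was at 0.0162, 0.217 and 0.264 rescaled FPKM on E14.5, 1.79 and 2.76 on E16.5, 15.9 and 21.3 on E18.5, 50.7 and 47.4 at P5, 14.7 and 20.5 at 4 weeks, and 34.4 and 53.5 at 12 weeks. It was called in every step: 1.48 ± 0.22 to E16.5 (adjusted p = 0.0019, limma), 2.59 ± 0.24 to E18.5 (adjusted p = 0.00024), 1.36 ± 0.24 to P5 (adjusted p = 0.0066), -1.45 ± 0.24 to 4 weeks (adjusted p = 0.0011) and 1.26 ± 0.24 to 12 weeks (adjusted p = 0.0065). The last call was lost without 12-week replicate 2 (0.94) and in a fit to the groups compared alone (adjusted p = 0.16).

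Its neighbour St6galnac2 (chr11:116536617-116556182, minus strand), which sialylates core 1, rose later. It was at 3.27 to 12.2 rescaled FPKM in the embryo, 9.76 and 10.5 at P5, 30.2 and 75.7 at 4 weeks, and 54.5 and 89.6 at 12 weeks. The P5 to adult rise was 2.40 ± 0.45 (adjusted p = 0.002, limma) and held on deposited FPKM (1.74). The ratio of St6galnac1 to St6galnac2 was 0.00494 to 0.0512 on E14.5, 1.31 and 1.97 on E18.5, 5.2 and 4.51 at P5, and 0.271 to 0.631 in the adult. St6galnac1 was thus the more abundant of these adjacent genes at E18.5 and P5 only, and St6galnac2 was highest in the adult.

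St3gal1 and St3gal4 rose together until P5 and then parted from St6galnac2. St3gal1 (mm9 chr15:66934437-66945922, minus strand) sialylates the galactose of core 1, and was at 8.21, 7.19 and 7.12 rescaled FPKM on E14.5, a mean of 14.3 ± 3.1 on E16.5 (SD, n = 2), 47.8 and 51.1 on E18.5, 83.6 and 93.6 at P5, 101 and 66.2 at 4 weeks, and 16 and 12.1 at 12 weeks. The rise from E16.5 to E18.5 (1.74 ± 0.21, adjusted p = 0.001, limma) and the fall from 4 to 12 weeks (-2.47 ± 0.21, adjusted p = 5.6e-05) were both called. St3gal4 (chr9:34854164-34924395, minus strand), which sialylates N-acetyllactosamine, was at 14.4, 15.3 and 16.8 on E14.5, 33.9 and 33.5 on E16.5, 62.3 and 70.0 on E18.5, 118 and 129 at P5, 156 and 134 at 4 weeks, and 72.5 and 51.2 at 12 weeks. From embryo to P5 the rises were 2.42 ± 0.84 for St3gal1 (adjusted p = 0.061) and 2.03 ± 0.58 for St3gal4 (adjusted p = 0.031), and each call was lost when either P5 sample was left out (adjusted p of 0.29 and 0.28, and of 0.22 and 0.2). St3gal4 also fell from 4 to 12 weeks (-1.23 ± 0.16, adjusted p = 0.00076), and this call was lost without 12-week replicate 2 (-0.98) and in a fit to the groups compared alone (adjusted p = 0.11). St3gal4 held 45.1% to 56.5% of summed St3gal FPKM in all but 1 sample from E16.5 on, the exception being 12-week replicate 2 with 42.2%.

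**Figure D3:**
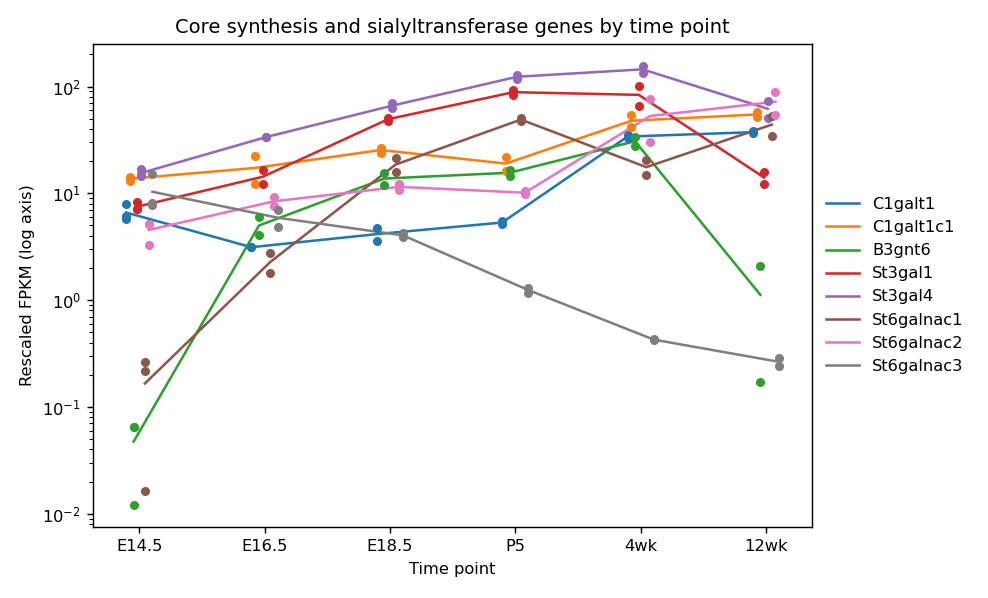
Points are single samples and lines join the means of the time points for 8 genes, with the 6 time points on the horizontal axis and rescaled FPKM on a log axis. C1galt1 stays between 3.12 and 7.88 until P5 and is at 33.1 or more in the adult, B3gnt6 drops at 12 weeks, and St6galnac3 declines from 15.1 at its highest at E14.5 to 0.242 at its lowest at 12 weeks.

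The sialyltransferase genes called lower from embryo to adult were St3gal2, St3gal3, St6gal1, St6galnac3, St6galnac4 and St6galnac6. St6gal1, which makes alpha2,6-sialylated N-glycans, was at 31.9, 26.0 and 27.9 rescaled FPKM on E14.5, 8.75 and 7.92 on E16.5, 4.12 and 4.57 at P5, and 1.71 to 2.89 in the adult. Most of its change came in the first step (-1.66 ± 0.13, adjusted p = 5.6e-05, limma). St6galnac3, which adds sialic acid to an already sialylated core 1 or ganglioside, went from 15.1, 8.19 and 7.75 on E14.5 to 1.31 and 1.17 at P5 and 0.242 to 0.434 in the adult (embryo to adult -2.51 ± 0.27, adjusted p = 3.7e-06). St3gal2 and St3gal3 went from 12.4 to 13.9 and from 7.27 to 7.48 on E14.5 to 2.48 to 3.37 and 0.87 to 1.87 in the adult, with differences of -1.51 ± 0.19 (adjusted p = 1.5e-05) and -1.52 ± 0.21 (adjusted p = 3.6e-05). St6gal1, St6galnac3, St3gal2 and St3gal3 were called lower under both scalings, which is no check of a fall, as stated above. St6galnac1 and St6galnac2 rose under both scalings. In summed St6gal and St6galnac FPKM the share of St6gal1 went from 49.2% to 51.8% at E14.5 to 2.17% and 1.15% at 12 weeks. St6galnac1 made up 69.6% and 68.1% of that sum at P5, and St6galnac2 55.7% to 74.4% in the adult.

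Some of the enzymes that start gangliosides rose from P5 to adult. St3gal5, the GM3 synthase, was at 7.19 and 7.71 rescaled FPKM at P5, 17.8 and 27.9 at 4 weeks, and 34.8 and 41.2 at 12 weeks, and its embryonic samples lay between 9.59 and 12.6. B4galt6, which makes its substrate lactosylceramide, was at 3.57 to 6.17 in the embryo, 2.44 and 2.47 at P5, 11.4 and 13.1 at 4 weeks, and 13.2 and 16.4 at 12 weeks. The P5 to adult rises were 1.83 ± 0.25 for St3gal5 (adjusted p = 0.0002, limma) and 2.06 ± 0.20 for B4galt6 (adjusted p = 1.4e-05), called on both scalings. From embryo to adult the rises were 1.30 ± 0.18 and 1.29 ± 0.14 (adjusted p of 3.2e-05 and 5.5e-06), and 0.41 and 0.44 on deposited FPKM, not called. B4galt5, the other lactosylceramide synthase, did not share this course and went from 8.63, 5.64 and 5.62 on E14.5 to 1.65 and 1.5 at P5 and 0.793 to 2.35 in the adult. Its embryo to P5 fall (-1.11 ± 0.32, adjusted p = 0.034) was lost without E14.5 replicate 1 (-0.97) or without either P5 sample (adjusted p of 0.23 and 0.22). St3gal6 rose from 0.958 to 2.41 in the embryo to 4.22 to 12.7 in the adult (1.48 ± 0.26, adjusted p = 0.00023; 0.76 on deposited FPKM, not called).

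Among galactosyltransferases of N-acetyllactosamine, B4galt1 was not called and B4galt2 fell. B4galt1, also the galactosyltransferase of lactose synthase, lay between 14.2 and 30.2 rescaled FPKM in all samples, with an embryo to adult difference of -0.30 ± 0.17 (adjusted p = 0.13, limma). B4galt2 (mm9 chr4:117541865-117556092, minus strand) was at 20.1, 14.1 and 13.8 on E14.5, 14.1 and 10.1 on E16.5, 7.66 and 7.5 on E18.5, 6.35 and 5.54 at P5, 0 and 0.484 at 4 weeks, and 0.667 and 0.749 at 12 weeks. The 0 in 4-week replicate 1 allows up to 0.144 rescaled FPKM. All 4 adult samples were below 1 and all earlier ones above 5, and the P5 to 4-week difference was -2.51 ± 0.23 (adjusted p = 2.1e-05). B4galt4 fell from 5.28 to 7.86 in the embryo to 1.26 to 3.27 in the adult (-1.30 ± 0.16, adjusted p = 1.6e-05), and its P5 to adult call (-1.04) was lost without 4-week replicate 1 (-0.91) or 12-week replicate 1 (-0.99). Within summed B4galt FPKM, B4galt2 went from 16.7% to 21.4% at E14.5 to at most 1.13% in the adult and B4galt6 from 4.28% and 4.62% at P5 to 17.3% to 24.8%.

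Among the B3gnt genes, 1 of 8 tested was called from embryo to adult. This was B3gnt9, at 3.88 to 5.17 rescaled FPKM until P5 and at 0.383 to 2.18 in the adult (-1.44 ± 0.18, adjusted p = 1.5e-05, limma), whose P5 to 4-week call was lost without 4-week replicate 1 (-0.62) and in a fit to the groups compared alone (adjusted p = 0.13). B3gnt1, a symbol used for the gene now called B4gat1, whose enzyme primes the O-mannose glycan of dystroglycan, went from 15.8 to 17.2 on E14.5 to 7.87 to 11.8 in the adult (-0.58 ± 0.14, adjusted p = 0.0022, below the size threshold). B3gnt5, which starts lacto-series glycolipids, fell from 5.67, 2.72 and 2.8 on E14.5 to 1.13 and 0.714 on E16.5 (-1.25 ± 0.24, adjusted p = 0.0072). Without E14.5 replicate 1, the highest of the 7 embryonic samples, the difference was -0.98.

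Of 7 tested fucosyltransferases, 2 fell from embryo to adult (14.7% of all tested genes did), and 4 on deposited FPKM (38.0% of all tested genes). Fut2, which makes H antigen in secretory epithelia, was at 0.467, 1.44 and 1.41 rescaled FPKM on E14.5, 4.86 and 5.39 on E16.5, 2.79 and 2.7 on E18.5, 1.41 and 1.35 at P5, and 0.11 to 0.665 in the adult. It rose to E16.5 (1.58 ± 0.23, adjusted p = 0.0015, limma), and its adult samples were below all embryonic ones but E14.5 replicate 1 (-1.39 ± 0.34, adjusted p = 0.003). Fut8, the core fucosyltransferase of N-glycans, was at 4.53 to 5.0 on E14.5, 13.9 and 13.8 on E18.5, and 2.55 and 2.47 at 12 weeks, with an embryo to adult difference of -0.96 ± 0.30 (adjusted p = 0.012) just below the size threshold.

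Sulfotransferases of the Chst family were called in both directions. Of 12 tested, 2 were higher and 5 lower from embryo to adult (13.8% and 14.7% of all tested genes). On deposited FPKM 1 was higher and 8 were lower (5.58% and 38.0% of all tested genes). Chst13 (mm9 chr6:90258345-90275179, minus strand), a chondroitin 4-O-sulfotransferase, had 0 reads in 5 of 7 embryonic samples, 3 and 2 reads at E16.5 and 4 and 2 reads at P5, and then 55, 122, 270 and 451 reads in the adult samples. In rescaled FPKM these were 0 to 0.0402 in the embryo, 0.046 and 0.0279 at P5, 8.02 and 15.0 at 4 weeks, and 11.0 and 15.2 at 12 weeks. It had the lowest adjusted p of any member from embryo to adult (6.6e-10, limma), and its log2 difference of 3.68 ± 0.15 on the log2(FPKM + 1) scale is no measure of the true ratio, since the embryonic values lie near 0.

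Chst9, which sulfates GalNAc at position 4, led the family from E18.5 on. It was at 1.95, 4.41 and 4.63 rescaled FPKM on E14.5, 16.1 and 12.2 on E16.5, 26.7 and 30.5 on E18.5, 16.9 and 20.5 at P5, 37.6 and 18.4 at 4 weeks, and 27.1 and 27.6 at 12 weeks. The rise to E16.5 was 1.75 ± 0.31 (adjusted p = 0.0049, limma). Its embryo to adult call (1.36 ± 0.56, adjusted p = 0.05) was lost without 4-week replicate 1 (adjusted p = 0.12) and on deposited FPKM (0.49). Chst9 held 2.90% to 6.77% of summed Chst FPKM at E14.5 and 35.4% to 60.9% from E18.5 on, and Chst13 13% to 28.8% in the adult.

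The Chst genes that fell act on keratan, chondroitin or dermatan chains and on N-acetylglucosamine. Chst2, which sulfates N-acetylglucosamine at position 6, was at 13.9, 12.9 and 13.1 rescaled FPKM on E14.5, 9.73 and 8.54 on E16.5, 4.74 and 4.46 on E18.5, 2.6 and 2.56 at P5, 1.23 and 1.11 at 4 weeks, and 0.614 and 0.454 at 12 weeks. It was lower at each later time point without overlap (embryo to adult -2.44 ± 0.28, adjusted p = 7.9e-06, limma). Chst1, a galactose 6-O-sulfotransferase of keratan sulfate, went from 6.1, 9.12 and 9.35 on E14.5 to 2.08 and 1.41 at P5 and 0.451 to 1.35 in the adult (-2.09 ± 0.19, adjusted p = 9.8e-07). Chst14, the dermatan 4-O-sulfotransferase, went from 13.4 ± 2.71 in the embryo (SD, n = 7) to 7.94 and 7.78 at P5, 0.461 and 3.32 at 4 weeks, and 3.32 and 2.69 at 12 weeks (-2.16 ± 0.27, adjusted p = 1.3e-05). Its lowest value, in 4-week replicate 1, came from 4 reads. Chst12, a further chondroitin 4-O-sulfotransferase, went from 7.06 to 9.71 in the embryo to 4.26 and 4.15 at P5 and 0.269 to 2.74 in the adult (-1.78 ± 0.23, adjusted p = 2.4e-05), and its P5 to adult call (-1.02) was lost without 4-week replicate 1 (-0.68) or either P5 sample (adjusted p of 0.18 and 0.16). The mesenchyme marker sum given above was also lower in every adult sample than in every earlier one, with 6 of 7 of its markers called lower from embryo to adult, and its part in these falls was not tested.

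**Figure D4:**
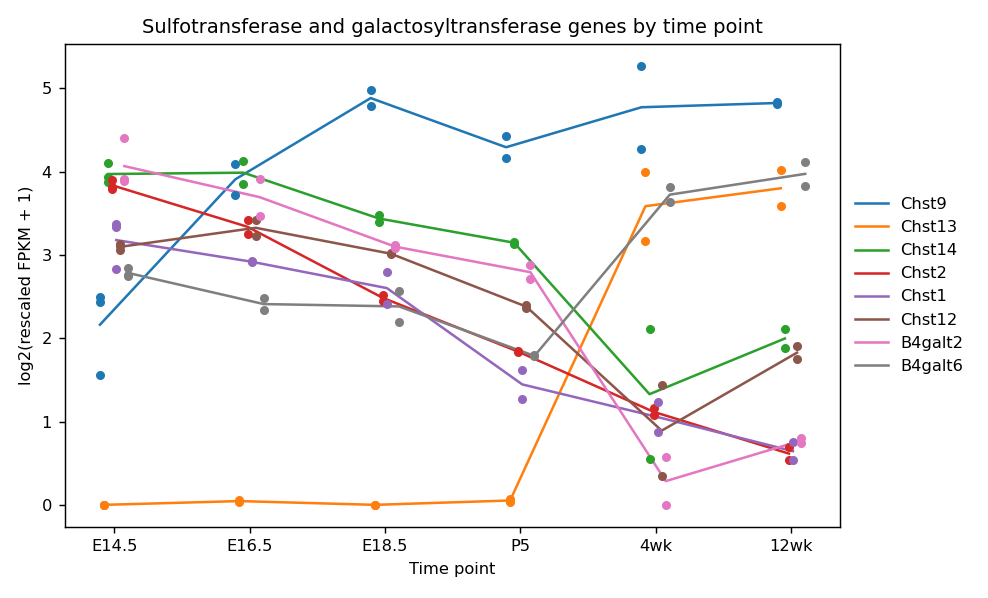
Points are single samples and lines join the means of the time points for 6 Chst genes and 2 B4galt genes, with the 6 time points on the horizontal axis and log2(rescaled FPKM + 1) on the vertical axis. Chst13 sits near 0 until P5 and rises at 4 weeks together with B4galt6, while B4galt2, Chst1, Chst2, Chst12 and Chst14 are lower in the adult than at E14.5.

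The nucleotide-sugar transporters were called less often on the deposited than on the rescaled scale. Slc35b1 (mm9 chr11:95246006-95253090, plus strand), which exchanges ATP and ADP across the endoplasmic reticulum membrane, was the most abundant of them in the adult. It was at 32.8, 32.7 and 32.9 rescaled FPKM on E14.5, 39.9 and 31.9 on E16.5, 55.4 and 63.6 on E18.5, 55.9 and 56.1 at P5, 116 and 143 at 4 weeks, and 156 and 194 at 12 weeks. Every adult sample was above every earlier one. The embryo to adult rise was 1.88 ± 0.21 (adjusted p = 4.5e-06, limma) and was 0.95 on deposited FPKM, just below the threshold.

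Among carriers of the donors used in O-glycans, Slc35a1 and Slc35a2 were not called from embryo to adult and Slc35a3 was called on the rescaled scale. Slc35a1, the CMP-sialic acid transporter, was at 14.8, 22.2 and 21.6 rescaled FPKM on E14.5, 35.3 and 30.7 on E16.5, 52.8 and 56.7 on E18.5, 33.9 and 38.8 at P5, 68.2 and 66.7 at 4 weeks, and 39.3 and 38.7 at 12 weeks. It had a peak at E18.5 and another at 4 weeks, and its embryo to adult difference of 0.74 ± 0.33 was not called (adjusted p = 0.062, limma). Slc35a2, the UDP-galactose transporter, went from 8.22 to 8.77 on E14.5 to 18.8 and 19.9 at 4 weeks and 23.6 and 22.6 at 12 weeks (0.85 ± 0.17, adjusted p = 0.00081, below the size threshold). Slc35a3, a UDP-N-acetylglucosamine transporter, went from 6.57 to 10.6 on E14.5 to 24.1 to 30.3 in the adult and just passed (1.03 ± 0.25, adjusted p = 0.0028). That call was lost without any single E14.5 sample (0.88 to 0.98), without 12-week replicate 2 (0.98) and on deposited FPKM (0.13).

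Slc35c1, the GDP-fucose transporter, rose in 1 step and then stayed level. It was at 3.67, 4.98 and 4.69 rescaled FPKM on E14.5, 10.9 and 15.2 on E16.5, and between 10.6 and 15.4 in every later sample (E14.5 to E16.5 1.36 ± 0.15, adjusted p = 0.00033, limma). Its relative Slc35c2 rose over a longer time, from 12.2 to 14.0 on E14.5 to 66.6 and 61.8 at 4 weeks and 41.9 and 43.9 at 12 weeks (embryo to adult 1.34 ± 0.27, adjusted p = 0.00078; 0.42 on deposited FPKM, not called). Fut2 and Slc35c1 thus both rose at E16.5, and Fut2 alone was lower again in the adult than at E16.5.

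The PAPS transporters Slc35b2 and Slc35b3, which supply the Chst enzymes, did not reach the size threshold. Slc35b2 was at 21.5 to 25.3 rescaled FPKM on E14.5, 61.9 and 66.1 at 4 weeks, and 34.9 and 39.2 at 12 weeks (embryo to adult 0.65 ± 0.22, adjusted p = 0.022, limma). Slc35b3 lay between 5.43 and 13 in all samples (0.43 ± 0.15, adjusted p = 0.026). Slc35b4, a UDP-xylose and UDP-N-acetylglucosamine transporter, was lowest at P5 and 4 weeks (5.27 to 6.39) and rose to 13.2 and 12.2 at 12 weeks (1.01 ± 0.12, adjusted p = 0.00051). That call was lost without 4-week replicate 1 (0.89) or 12-week replicate 1 (0.96), on deposited FPKM (0.94) and in a fit to the groups compared alone (adjusted p = 0.1). The transporters of UDP-glucuronic acid and other UDP sugars went apart by value: Slc35d1 from 2.81 to 3.06 on E14.5 to 0.493 to 1.75 in the adult (-0.57 ± 0.19, adjusted p = 0.019) and Slc35d2 from 0.968 to 1.78 to 2.85 to 3.58 (0.70 ± 0.13, adjusted p = 0.00047).

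Carriers of less certain substrate completed the list of rises after P5. Slc35a5, Slc35e1, Slc35e4 and Slc35f6 rose from P5 to adult by 1.18 ± 0.16, 1.1 ± 0.14, 1.09 ± 0.20 and 1.03 ± 0.14 (adjusted p of 0.00026, 0.00013, 0.002 and 0.00021, limma). Slc35f6 was at 4.57 to 5.33 rescaled FPKM in the embryo, 6.6 and 6.16 at P5 and 12.2 to 15.9 in the adult. On deposited FPKM none of these 4 was called (0.58, 0.46, 0.55 and 0.41, with adjusted p of 0.012, 0.035, 0.049 and 0.035). The calls of Slc35e4 and Slc35f6 were close to the threshold and were lost without P5 replicate 1 or 4-week replicate 2 (0.99 and 0.96), and without P5 replicate 2, 12-week replicate 1 or 12-week replicate 2 (0.99, 1.0 and 0.97). Slc35f5 was at 16.1 to 16.9 on E14.5, 46.6 and 48.9 on E18.5, and 45.5 to 72.9 in the adult, and its embryo to adult call (1.11 ± 0.31, adjusted p = 0.0069) was lost without 4-week replicate 1 (0.98) and on deposited FPKM (0.18).

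**Figure D5:**
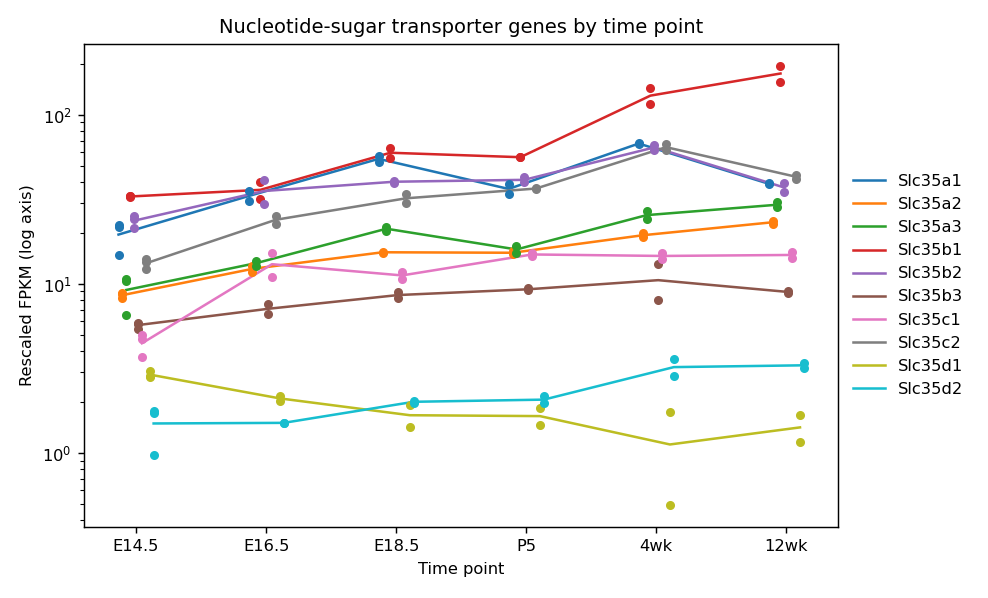
Points are single samples and lines join the means of the time points for 10 Slc35 genes, with the 6 time points on the horizontal axis and rescaled FPKM on a log axis. Slc35b1 separates upward at 4 weeks (116 and 143), Slc35a1 shows a peak at E18.5 and at 4 weeks, Slc35c1 is level from E16.5 on, and Slc35d1 lies above Slc35d2 on E14.5 and below it in the adult.

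Genes that make the donors were described as a list beside their carriers. Of 26 genes for the synthesis of nucleotide sugars and PAPS, 7 rose and 3 fell from embryo to adult, with a median log2 difference of 0.52 against -0.08 over all tested genes. On the same scale 13.8% of all tested genes rose and 14.7% fell. On deposited FPKM 1 rose and 7 fell (5.58% and 38.0% of all tested genes), so that most of the 7 rises were lost. Gne, which makes the precursor of sialic acid, was at 10.4 rescaled FPKM in its lowest E14.5 sample, 27.1 and 42.9 on E16.5, 72.4 and 73.1 on E18.5, 81.8 and 97.8 at P5, 103 and 145 at 4 weeks, and 65.8 and 49.1 at 12 weeks. Like St3gal1 and St3gal4, it had its highest values at P5 and 4 weeks and fell from 4 to 12 weeks. Nans, the sialic acid synthase, was instead at 36.1 to 38.8 on E14.5 and at 181 to 215 in the adult (1.67 ± 0.33, adjusted p = 0.00065, limma). Nans was also called higher from P5 to adult, and that call was lost on deposited FPKM.

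Among 16 mucins and mucin-like acceptors, 14 were listed and 7 were tested, and 3 of these (Muc13, Prol1 and Cd164) rose from embryo to adult (13.8% of all tested genes did). On deposited FPKM 2 were called higher and 1 lower (5.58% and 38.0% of all tested genes). Muc13, a membrane mucin, was at 0.0308 to 0.191 rescaled FPKM in the embryo, 0.211 and 0.225 at P5, 43.6 and 62.0 at 4 weeks, and 112 and 121 at 12 weeks (6.17 ± 0.23, adjusted p = 3.4e-10, limma). Like C1galt1 and Chst13 it was in a separate range in the adult. Of 33 further glycan enzyme genes outside the chosen families, 29 were listed and 22 tested. From embryo to adult 6 of these rose and 5 fell (13.8% and 14.7% of all tested genes), against 5 and 7 on deposited FPKM (5.58% and 38.0%). Abo, the blood group A and B transferase, was listed at 0 in all embryonic samples, was at 0.0214 and 0.0259 at P5, and was at 11.4 and 18.2 at 4 weeks and 19.1 and 24.3 at 12 weeks. Ggta1, which makes the alpha-Gal epitope, went from 20.1 to 39.1 in the embryo to 2.89 to 4.23 in the adult (-2.71 ± 0.18, adjusted p = 4.8e-08).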

How the data were processed

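The 13 samples were grouped by the age in their labels. Per the study's methods and the submitters' processing notes, 50 bp single-end reads were mapped to mm9 with TopHat2 2.0.13 and Bowtie2 2.2.6 and counted on UCSC genes with featureCounts, without reads mapping to several places or genes, so that near-identical copies are undercounted. The authors then deposited FPKM made with DESeq2 1.10.1, described as median normalized, which the values do not show: median-of-ratios factors were 1.148 to 1.38 in embryonic, 1.031 and 1.089 in P5 and 0.6173 to 0.7143 in adult samples. FPKM were therefore divided by these factors here. Reads were inferred from the lowest values and the annotated mm9 exon lengths of genes. In a sample 32.8% to 43.6% of low values came out close to whole reads, so read numbers are estimates. Intervals and floors of 3 reads cover counting error only.

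Genes that reached 1 FPKM in any sample (14650) were tested on log2(rescaled FPKM + 1) with limma 3.58.1 (mean-variance trend, R 4.3.3) over all 13 samples, once by stage and once by time point, with Benjamini-Hochberg adjustment over all tested genes and a call at a log2 difference of 1 in size and an adjusted p below 0.1. Adding 1 before the log understates the change of low genes. Errors of differences are standard errors. Nothing in the labels says whether samples of an age came from separate litters, so p-values measure the spread between these samples. In the fit by stage this spread includes the change between the ages of a stage, which count as replicates there. For Galnt3 the standard error was 0.52 from P5 to adult by stage and 0.18 from P5 to 4 weeks by time point. The code was tested on simulated data. Alternatives were deposited FPKM, a pseudocount of 0.1, no filter, a replicate block, fits to the groups compared alone, stage means over time points, and leaving out each sample.

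Named members were those called in a stage comparison (at most 25 by size) or in a step (at most 5 in each direction), the 2 highest of each family, and textbook transporters. Galnt1 and Galnt4 were added after their values were seen. Members and lists were chosen with earlier results of these data known. Gene positions are those of GENCODE M1 on mm9, which held 96 of the 99 genes, 5 of them under another symbol.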

Additional observations from a re-analysis of the deposited data

Results flagged for a closer look

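Within the 7 embryonic samples, E14.5 replicate 1 stood apart from the others for 2 members. B3gnt5 was at 5.67 rescaled FPKM there against 2.8 in the next sample, a gap of 0.573 of the range, and St6galnac3 was at 15.1 against 8.19, a gap of 0.614. Chance flags about 1 in 20 groups, and 2 of the 116 groups checked were flagged, which is below that rate. The same sample had the highest level of the erythroid marker Hbb-y (2229 against 258 and 513 in the other E14.5 samples) and the lowest of the epithelial marker Epcam (75.6 against 126 and 122), and the part of this in either gene was not tested.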

How the results depend on the processing

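No called and named member changed direction under any alternative. Called members numbered 8 from embryo to P5, and became 17 on deposited FPKM, 13 with a pseudocount of 0.1, 1 without P5 replicate 1 and 2 without P5 replicate 2 (1 to 10 over all samples left out in turn). With a pseudocount of 0.1 they went from 20 to 32 from P5 to adult, from 10 to 16 from E14.5 to E16.5, from 3 to 6 from E16.5 to E18.5, from 19 to 35 from P5 to 4 weeks, and from 11 to 20 from 4 to 12 weeks. In that last step, a fit to the groups compared alone called 5. Leaving out each sample in turn gave 17 to 24 calls from P5 to adult, 40 to 42 (against 41) from embryo to adult, 2 to 4 from E16.5 to E18.5, 18 to 23 from P5 to 4 weeks and 9 to 15 from 4 to 12 weeks. The cause was not tested, other than that fewer samples enter the smaller fits.

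Replicate numbers were not taken as pairs: deviations of same-numbered samples had a mean correlation of -0.0123 (-0.373 to 0.271), and those of differently numbered samples 0.0092. With the replicate block 6 members were called from embryo to P5 (Galnt3 and St3gal1 were lost, adjusted p = 0.12 each in limma), 20 from P5 to adult and 40 from embryo to adult (Chst9 and Slc35a3 were lost and 1 other was gained).

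Depth was lowest at 4 weeks, where 3 reads on 1 gene were worth up to 0.437 rescaled FPKM for Chst13, and values near 0 there cannot be told from each other.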
